A study of Mus musculus with 12 samples.

Results

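The SLC25 family was examined in bulk RNA-seq of mouse kidney. Its members were taken by name alone, as every protein-coding gene whose symbol is Slc25a followed by a number. No measured value entered that rule, but the family was chosen with earlier results of these data known. All 47 genes of that kind in the GENCODE M21 annotation had a row among the 55487 genes counted, and 1 further row, the pseudogene Slc25a5-ps, was left out. The 12 libraries came from kidney cortex according to the sample labels. Sham controls (Ctrl in the plots, 3 libraries) were mice labelled WT and sham-treated. The study states that ALR flox/flox mice served as its controls, and in places it calls the comparison group wild-type. Sham knockouts (PT-KO, 3 libraries) were mice labelled ALR knockdown and sham-treated, which are ALR flox/flox with Ggt1-Cre. Injured controls (Ctrl+I/R, 3 libraries) and injured knockouts (PT-KO+I/R, 3 libraries) had the same genotypes and underwent 22 min of bilateral renal ischemia with 24 h of reperfusion (I/R). All mice were on a C57BL/6 background and 6 to 8 weeks old. Ggt1-Cre acts in proximal tubule cells, so other cells of a knockout kidney keep the floxed gene intact.

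Carriers of the SLC25 family sit in the inner mitochondrial membrane, with a few in the outer membrane or in peroxisomes, and move nucleotides, phosphate, carboxylates, amino acids, cofactors, iron and acylcarnitines between the matrix and the cytosol. The proximal tubule is rich in mitochondria and runs largely on fatty acid oxidation, so that it depends on these exchanges. ALR, encoded by Gfer, is the sulfhydryl oxidase that works with Chchd4 (MIA40) in the disulfide relay of the intermembrane space. That relay folds the small Tim proteins, which escort newly made carriers to the TIM22 complex of the inner membrane. The data describe mRNA levels and do not measure import or carrier protein.

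Library totals ran from 12165089 to 23123693 counts. The knockout could not be seen in Gfer itself. Its level was 12.7, 11.4 and 14.4 CPM (read counts relative to library size, scaled by the TMM method) in sham controls, and 9.96, 17.1 and 15.0 CPM in sham knockouts. In injured controls it was 15.3, 19.98 and 17.6 CPM, and in injured knockouts 21.6, 22.8 and 21.6 CPM. These whole-gene counts include exons outside the floxed part and cells without Cre, so they do not check the genotype, and knockout below means the libraries labelled so. Xist, which marks female tissue, had 22402 and 19755 counts in sham control libraries 1 and 2, where Y-linked genes had none, and at most 11 counts in the other 10 libraries, which were male. Both sexes therefore occurred only in sham controls. The column of sham control library 3 matched no control title, which are numbered 1, 2 and 4, and was placed in its group by its name alone. The study gives its group sizes for sequencing in mice, whereas the labels tie no library to an animal, and the p-values measure the spread between these libraries. Defining markers of the proximal tubule, the main tissue of the cortex, summed to at least 12859 CPM in every sham library.

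Sequence around the start sites was examined for the carriers whose mRNA moved most in injured knockout kidneys and for those holding a motif of a mitochondrial gene regulator. RefSeq windows (GRCm38.p6, 250 bases before and 50 bases after a start site) were matched to 36 of the 47 carriers. The sequences run 5′ to 3′ on the gene's strand. The first 2 windows, from carriers that were among the most increased, held none of the motifs searched. Slc25a22 (chr7:141437825-141438124, minus strand) is shown for the first of 3 annotated start sites, and Slc25a24 has 1 (chr3:109122899-109123198, plus strand).
Slc25a22: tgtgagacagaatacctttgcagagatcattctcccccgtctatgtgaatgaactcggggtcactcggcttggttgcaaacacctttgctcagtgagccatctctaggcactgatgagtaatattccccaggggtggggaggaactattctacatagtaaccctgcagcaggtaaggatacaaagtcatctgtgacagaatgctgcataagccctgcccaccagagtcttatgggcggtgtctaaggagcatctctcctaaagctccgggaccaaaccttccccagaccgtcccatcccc
Slc25a24: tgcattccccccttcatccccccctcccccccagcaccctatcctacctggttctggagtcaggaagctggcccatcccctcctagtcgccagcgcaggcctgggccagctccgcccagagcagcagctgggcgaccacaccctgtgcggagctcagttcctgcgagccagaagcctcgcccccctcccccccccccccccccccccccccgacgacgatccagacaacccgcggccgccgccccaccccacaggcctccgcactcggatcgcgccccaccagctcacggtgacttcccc
The cyclic AMP response element TGACGTCA, a palindrome in which capitals mark the match below, was present in the windows of Slc25a25 (chr2:32424017-32424316, minus strand, at an internal start site, 1 of 3) and Slc25a36 (chr9:97110992-97111291, minus strand).
Slc25a25: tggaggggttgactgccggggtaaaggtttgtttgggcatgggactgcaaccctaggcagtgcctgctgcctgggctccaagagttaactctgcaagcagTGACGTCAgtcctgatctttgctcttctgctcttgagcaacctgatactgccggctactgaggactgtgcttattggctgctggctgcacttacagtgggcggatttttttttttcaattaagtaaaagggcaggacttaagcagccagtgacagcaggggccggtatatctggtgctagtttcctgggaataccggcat
Slc25a36: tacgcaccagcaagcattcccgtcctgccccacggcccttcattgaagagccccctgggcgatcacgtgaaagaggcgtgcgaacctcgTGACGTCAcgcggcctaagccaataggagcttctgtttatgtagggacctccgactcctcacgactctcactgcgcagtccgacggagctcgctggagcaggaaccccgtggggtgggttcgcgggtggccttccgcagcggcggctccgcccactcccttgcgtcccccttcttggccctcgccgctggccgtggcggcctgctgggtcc
The GABP motif ACTTCCGG was present on the opposite strand in the window of Slc25a20 (chr9:108661886-108662185, plus strand), where capitals mark it.
Slc25a20: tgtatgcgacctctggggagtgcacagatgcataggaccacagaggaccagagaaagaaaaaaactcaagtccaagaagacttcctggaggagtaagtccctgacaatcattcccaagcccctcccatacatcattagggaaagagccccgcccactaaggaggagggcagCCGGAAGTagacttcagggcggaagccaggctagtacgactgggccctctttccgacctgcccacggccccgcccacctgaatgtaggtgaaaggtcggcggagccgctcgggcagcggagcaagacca

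The CRE match of Slc25a25 began 150 bases before the start site and that of Slc25a36 began 161 bases before it. Both strands were searched for exact matches. The CRE was in 2 of 36 carriers (5.56%) and in 2.03% of 27025 genes with a window, and the GABP motif was in 1 carrier (2.78%) and in 4.31% of genes. No window of a carrier held the palindromic NRF1 site (1.07% of genes), the extended ERR site TCAAGGTCA (0.466%), the CARE core TGATGNAA (4.51%) or the PPAR direct repeat with 1 spacer base (0.0481%). These counts describe exact letters in short windows only.

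Carrier mRNA was dominated by a few genes. Per kb of exon, the mean level over 12 libraries was highest for Slc25a5 (598 CPM per kb), which encodes an ADP/ATP carrier. Slc25a3, the phosphate carrier, followed with 131 CPM per kb and Slc25a4, the second ADP/ATP carrier, with 129.6 CPM per kb. Next were Slc25a39, a glutathione carrier, with 113 CPM per kb and Slc25a10, the dicarboxylate carrier, with 80.3 CPM per kb. Per kb, the order of Slc25a3 and Slc25a4 differed between groups. In sham controls, Slc25a4 stood at 174 ± 9.95 CPM per kb and Slc25a3 at 146 ± 3.69 (SD, n = 3), whereas in injured knockouts the values were 86.0 ± 13.01 and 122 ± 6.66 CPM per kb. Before division by exon length (5550 bases for Slc25a3 and 2353 for Slc25a4), Slc25a3 was the higher in every group. Its mean and that of Slc25a4 were 808 and 409 CPM in sham controls, and 677 and 202 CPM in injured knockouts. Ranks between genes thus depend on the annotated exons. Slc25a11, the oxoglutarate carrier (58.8 CPM per kb), Slc25a1, the citrate carrier (41.0), Slc25a13, an aspartate/glutamate carrier (37.2), Slc25a51, the NAD+ carrier (36.6), and Slc25a30, a relative of the uncoupling proteins (34.1), completed the 10 highest. The place of Slc25a30 came from injured knockouts, where it stood at 57.7 CPM per kb, whereas in sham controls it stood at 22.1 CPM per kb, below Slc25a15 (37.7), Slc25a17 (37.3), Slc25a16 (36.3) and Slc25a23 (22.7). Other ranks also differed by group. In injured knockouts, Slc25a24 (41.8 CPM per kb) and Slc25a25 (31.8) stood above Slc25a11 (29.8) and Slc25a13 (22.7). Slc25a5 alone made up 33.9% to 39.5% of the summed carrier level per length in a library.

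**Figure D1:**
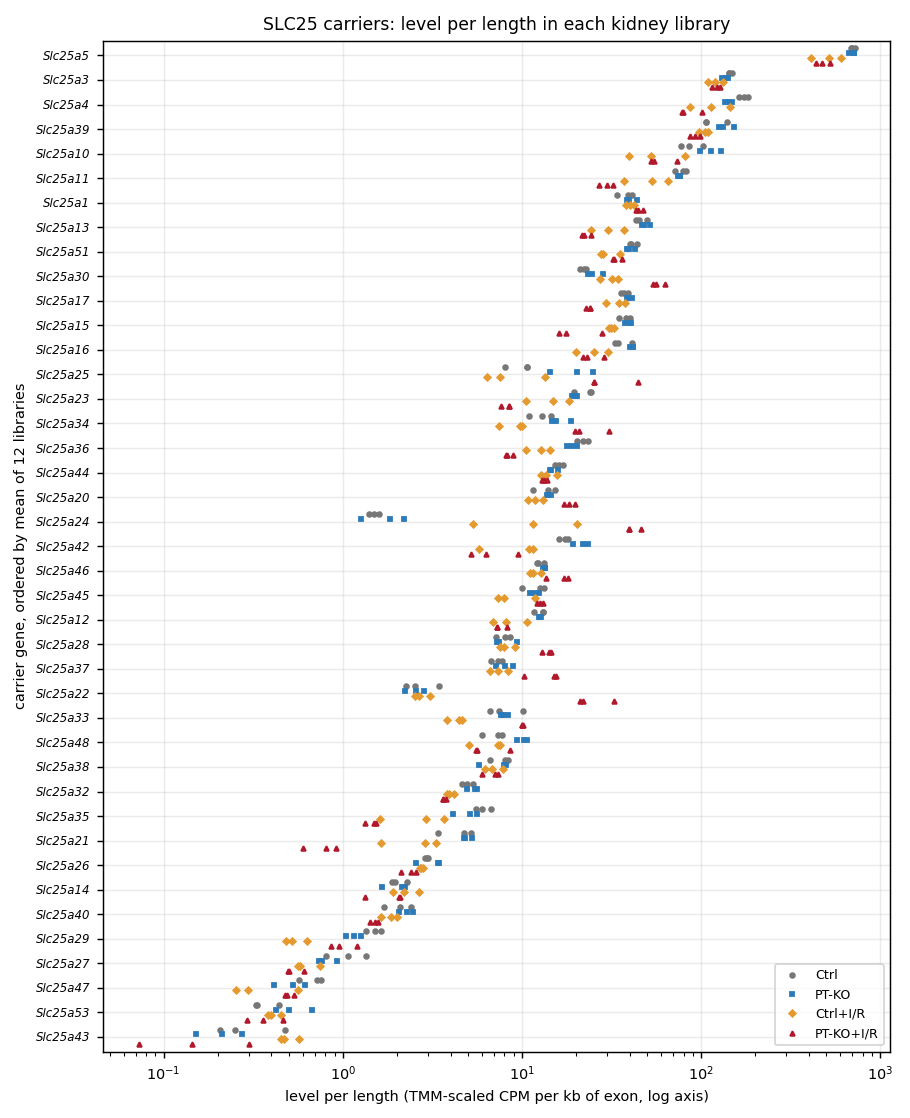
Level per length (CPM per kb of exon, log axis) of 41 of the 42 carriers tested in the fit to all 12 libraries, 1 point per library, ordered by mean level. Slc25a5 lies highest throughout, and the injured knockout points of Slc25a22 and Slc25a24 lie apart from all the others of those genes.

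At the lower end, 5 carriers had too few counts to be tested. Slc25a54 had 0 counts in all 12 libraries, and Slc25a41, whose product belongs to the ATP-Mg/phosphate carriers, had at most 1. Slc25a2, an ornithine carrier, had at most 4 counts, Slc25a18, a glutamate carrier, at most 7, and Slc25a31, a testis ADP/ATP carrier, at most 14. Slc25a43 (at most 18 counts) passed the filter on low counts in some comparisons only. As a share of all counts, the 47 carriers together took 0.516% to 0.568% in sham libraries, 0.410% to 0.533% in injured controls and 0.407% to 0.477% in injured knockouts. All 6 sham libraries thus lay above the 3 libraries of injured knockouts, while 1 library of injured controls lay among the sham values.

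The comparison of injured kidneys asked how carrier mRNA in knockouts differed from that in controls 24 h after ischemia. Of 42 carriers tested, 11 rose and 8 fell in injured knockouts compared with injured controls, as called by the quasi-likelihood test of edgeR at a Benjamini-Hochberg adjusted p under 0.05. That is 45.2% of the carriers, next to 46.9% of all 15281 genes tested, so the share was near the background, and 22.5% of all genes were higher and 24.4% lower. The median log2 fold change was -0.09 over the carriers and close to 0 over all genes (-0.0049). A change of over 2-fold was called for 7 carriers (5 higher, which were Slc25a22, Slc25a25, Slc25a24, Slc25a34 and Slc25a33, and 2 lower, among them Slc25a21), beside 20.2% of all genes. Injured knockout and injured control values were fully separate for 26 of the 42, beside 58.7% of all genes. With total counts in place of TMM, 9 carriers were called higher and 15 lower, beside 12.9% of all genes higher and 33.2% lower, and the median of all genes moved to -0.21. The 19 called carriers kept their direction in this comparison under each of 13 alternatives. With a block for the library number, 5 of the 19 stayed called, and the lost calls listed below leave that setting out.

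**Figure D2:**
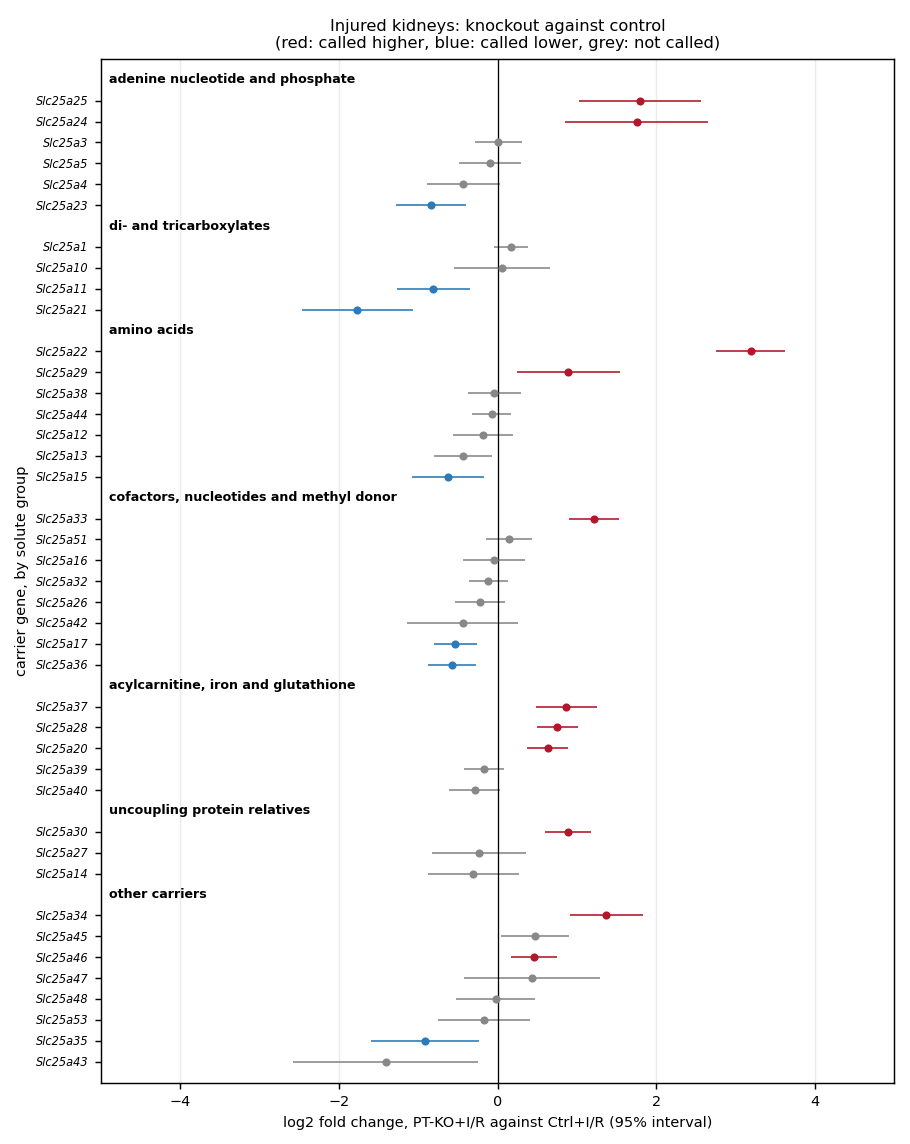
Log2 fold change of 41 of the 42 tested carriers in injured knockouts against injured controls (edgeR, 3 libraries each), grouped by transported solute, with 95% intervals. Red points are called higher (11) and blue points called lower (7 of the 8), and Slc25a22 lies farthest to the right at 3.19.

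Carriers of adenine nucleotides and phosphate moved in both directions, with 2 of 6 tested members higher and 1 lower. The ATP-Mg/phosphate carriers Slc25a23, Slc25a24 and Slc25a25 exchange ATP-Mg for phosphate under control of calcium and set the adenine nucleotide content of the matrix. Slc25a24 (chr3:109123149-109168457, plus strand) was at 5.12, 5.49 and 4.82 CPM in sham controls and at 7.50, 4.36 and 6.31 CPM in sham knockouts. It reached 39.7, 69.9 and 18.3 CPM in injured controls and 137, 135 and 158.5 CPM in injured knockouts. Every injured library lay above every sham library, and the injured knockout libraries lay above the injured control libraries. The rise in injured knockouts over injured controls was 3.36-fold (log2 fold change 1.75 ± 0.39 SE, edgeR adjusted p = 0.00834).

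Slc25a25 (chr2:32414487-32451445, minus strand) was at 83.5, 63.7 and 84.4 CPM in sham controls and at 196, 159.95 and 113 CPM in sham knockouts. It was at 59.2, 49.98 and 106 CPM in injured controls and at 352, 199 and 199.9 CPM in injured knockouts. Knockout libraries lay above control libraries both without and with injury, and injured knockout library 2 was far above the other members of its group. The difference between injured knockouts and injured controls was 3.47-fold (log2 fold change 1.79 ± 0.33, edgeR adjusted p = 0.00377). Slc25a25 overlaps Naif1 on the opposite strand by 989 bases, and it is not known whether the counting used strand. Opposite-strand neighbours also overlap Slc25a23 (Gm17168 by 3433 bases and Crb3 by 759), Slc25a36 (Gm16185 by 3285), Slc25a33 (Gm13068 by 1090), Slc25a46 (B930094E09Rik by 400), Slc25a11 (Rnf167 by 245) and Slc25a21 (Pax9 by 189).

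Slc25a23, the third of these carriers, fell. Its level was 129.6, 127 and 104 CPM in sham controls and 106, 108 and 101.2 CPM in sham knockouts, against 79.0, 56.2 and 96.7 CPM in injured controls and 44.8, 44.8 and 40.3 CPM in injured knockouts (log2 fold change -0.84 ± 0.19, edgeR adjusted p = 0.00853). Among the summed level per length of the 3 genes, Slc25a23 made up 66.6% ± 4.70 in sham controls, 48.3% ± 5.83 in sham knockouts, 40.5% ± 10.8 in injured controls and 10.1% ± 1.30 in injured knockouts (SD, n = 3). The share of Slc25a24 was 4.42% ± 0.342 in sham controls, 4.29% ± 1.13 in sham knockouts, 34.3% ± 20.1 in injured controls and 51.7% ± 7.95 in injured knockouts. Slc25a23 thus held the largest share in every sham control library and the smallest in every injured knockout library. Injured controls varied widely, and the 54.6% of Slc25a24 in injured control library 2 lay within the range of injured knockouts (42.9% to 58.3%). The ADP/ATP carriers and the phosphate carrier were not called. The log2 fold change was -0.10 ± 0.17 for Slc25a5, -0.43 ± 0.20 for Slc25a4 and 0.01 ± 0.13 for Slc25a3.

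**Figure D3:**
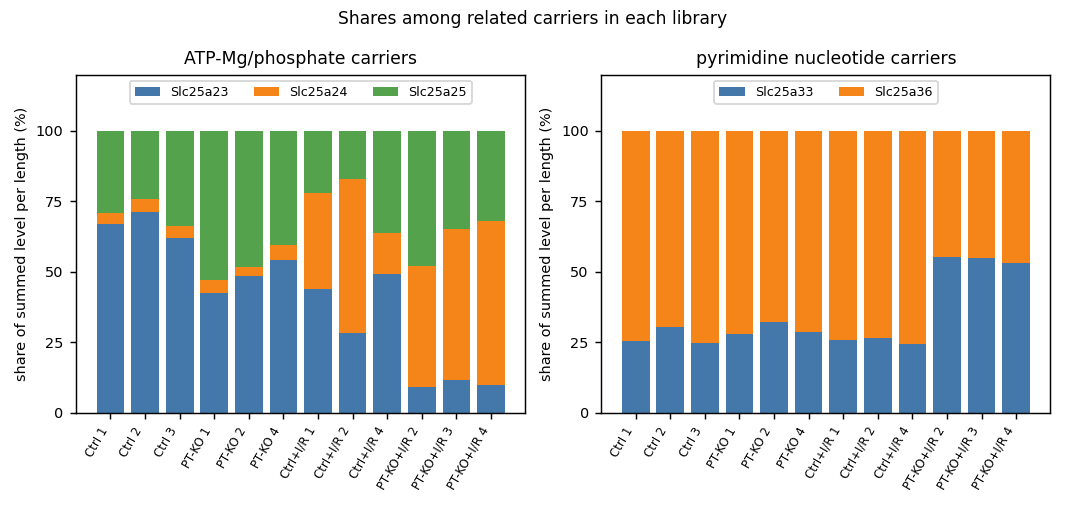
Share (%) of each gene in the summed level per length of the ATP-Mg/phosphate carriers (left) and the pyrimidine nucleotide carriers (right), 1 bar per library. Slc25a23 averages 66.6% in sham controls and 10.1% in injured knockouts, and Slc25a33 averages 26.8% and 54.3%.

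Of the 4 carriers of di- and tricarboxylates, 2 fell and none was called higher. Slc25a21 (chr12:56712634-57197472, minus strand) carries oxodicarboxylates such as 2-oxoadipate, an intermediate of lysine and tryptophan breakdown. It was at 16.5, 23.1 and 25.4 CPM in sham controls and at 23.5, 23.1 and 25.8 CPM in sham knockouts. Levels were 16.1, 7.93 and 14.1 CPM in injured controls and 3.93, 2.94 and 4.45 CPM in injured knockouts. The 3 injured knockout libraries lay below all 9 others, and the level in injured controls was 3.41-fold that in injured knockouts (log2 fold change -1.77 ± 0.30, edgeR adjusted p = 0.00276).

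Slc25a11, which exchanges oxoglutarate for malate in the malate-aspartate shuttle, was at 168, 151 and 176 CPM in sham controls and at 162, 159 and 161 CPM in sham knockouts. It was at 113, 78.7 and 139 CPM in injured controls and at 68.3, 63.8 and 57.3 CPM in injured knockouts. The injured knockouts were again the lowest group (log2 fold change -0.81 ± 0.20, edgeR adjusted p = 0.0121), but without injured knockout library 4 the call was lost (-0.74, adjusted p = 0.0574). Slc25a10, the dicarboxylate carrier, and Slc25a1, the citrate carrier that feeds cytosolic acetyl-CoA, were not called, with log2 fold changes of 0.05 ± 0.26 and 0.17 ± 0.09. Per length, Slc25a11 made up 46.9% ± 1.98 of the sum of Slc25a10 and Slc25a11 in sham controls, 47.7% ± 2.92 in injured controls and 33.2% ± 2.59 in injured knockouts (SD, n = 3), and 40.1%, 36.5% and 43.5% in the 3 sham knockout libraries. All of these sham knockout values lay below every sham control library (44.6% to 48.2%), and the injured knockouts (30.3% to 35.3%) lay lower still.

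Among 7 amino acid carriers tested, 2 rose and 1 fell (42.9%, beside 46.9% of all genes). The largest log2 fold change of all carriers belonged to Slc25a22 (chr7:141429744-141437892, minus strand), a mitochondrial glutamate carrier. It was at 20.6, 13.5 and 15.2 CPM in sham controls, at 15.4, 17.0 and 13.4 CPM in sham knockouts and at 16.0, 18.4 and 15.2 CPM in injured controls. In injured knockouts it reached 196, 131 and 127 CPM. The other 9 libraries overlapped, and the 3 injured knockout libraries all lay far above them. The rise over injured controls was 9.11-fold (log2 fold change 3.19 ± 0.19, edgeR adjusted p = 8.24e-05), and it was called under every alternative run, including without each library in turn.

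Slc25a29, which carries basic amino acids, was a low gene at 3.51, 4.27 and 3.93 CPM in sham controls and 2.71, 3.28 and 3.004 CPM in sham knockouts. It was at 1.25, 1.36 and 1.64 CPM in injured controls and at 2.48, 3.11 and 2.255 CPM in injured knockouts (log2 fold change 0.89 ± 0.28, edgeR adjusted p = 0.0320). The injured control libraries were the lowest here. The call was lost without injured control library 1 (0.79, adjusted p = 0.105), injured control library 2 (0.85, 0.0699), injured knockout library 3 (0.75, 0.124) or injured knockout library 4 (0.99, 0.0574), with total counts (0.69, 0.0841) and with no low-count filter (0.87, 0.0726).

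Slc25a15, the ornithine carrier of the urea cycle, was at 172, 178 and 184 CPM in injured controls and at 157, 91.2 and 99.9 CPM in injured knockouts, after 197 to 225 CPM in sham controls and 212 to 228 CPM in sham knockouts. The groups did not overlap, although injured knockout library 2 was close to injured controls (log2 fold change -0.62 ± 0.20, edgeR adjusted p = 0.0314). The call was lost without injured control library 1 (-0.66, adjusted p = 0.0670), injured control library 4 (-0.60, 0.0614), injured knockout library 3 (-0.47, 0.105) or injured knockout library 4 (-0.52, 0.120). Slc25a12 and Slc25a13, the aspartate/glutamate carriers of the malate-aspartate shuttle, were not called at log2 fold changes of -0.19 ± 0.16 and -0.44 ± 0.16. The glycine carrier Slc25a38 and Slc25a44, a carrier of branched-chain amino acids, were not called either.

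Of 9 carriers of cofactors, nucleotides and the methyl donor, 1 rose and 3 fell (44.4%, beside 46.9% of all genes). The 2 pyrimidine nucleotide carriers moved in opposite directions. Slc25a33 was at 14.1, 19.2 and 12.5 CPM in sham controls, at 14.9, 15.9 and 14.4 CPM in sham knockouts, at 8.43, 7.25 and 8.72 CPM in injured controls and at 19.0, 18.8 and 19.1 CPM in injured knockouts. It was lowest in injured controls, and the rise in injured knockouts over injured controls was 2.32-fold (log2 fold change 1.21 ± 0.14, edgeR adjusted p = 0.000543). Slc25a36 was at 122, 102 and 137 CPM in injured controls and at 78.4, 79.0 and 86.1 CPM in injured knockouts, after 195 to 225 CPM in sham controls and 170.5 to 195 CPM in sham knockouts (log2 fold change -0.58 ± 0.13, edgeR adjusted p = 0.00875). Per length, Slc25a33 made up 26.8% ± 3.07 of the pair in sham controls, 29.6% ± 2.21 in sham knockouts, 25.7% ± 1.12 in injured controls and 54.3% ± 1.17 in injured knockouts (SD, n = 3). The 9 libraries of the other groups ranged from 24.4% to 32.1% and did not reach the 53.0% to 55.1% of injured knockouts.

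Slc25a17, the peroxisomal carrier of coenzyme A, FAD and NAD, fell from 98.9, 83.5 and 108 CPM in injured controls to 68.7, 68.0 and 64.6 CPM in injured knockouts (log2 fold change -0.53 ± 0.12, edgeR adjusted p = 0.00772). The NAD+ carrier Slc25a51 was at 157, 153 and 194 CPM in injured controls and at 180.2, 199 and 178 CPM in injured knockouts, and was not called (0.14 ± 0.13). Slc25a16 and Slc25a42, linked to coenzyme A, Slc25a26, the S-adenosylmethionine carrier, and Slc25a32, linked to folate and FAD, were not called.

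The carriers of acylcarnitine, iron and glutathione split by solute, with 3 of 5 higher and none called lower. Slc25a20, which brings fatty acyl groups into the matrix as acylcarnitines, was at 57.5, 52.2 and 63.6 CPM in injured controls and at 96.4, 83.6 and 89.2 CPM in injured knockouts. Sham libraries lay between 56.1 and 74.4 CPM, below all injured knockouts (log2 fold change 0.63 ± 0.11, edgeR adjusted p = 0.00319). Both mitoferrins, which import iron for heme and iron-sulfur clusters, rose. Slc25a37 (mitoferrin 1) was at 44.4, 50.5 and 39.8 CPM in injured controls and at 62.2, 90.5 and 93.2 CPM in injured knockouts (0.86 ± 0.17, adjusted p = 0.00456). Slc25a28 (mitoferrin 2) was at 34.3, 29.9 and 28.4 CPM in injured controls and at 48.4, 54.7 and 53.5 CPM in injured knockouts (0.75 ± 0.11, adjusted p = 0.00158). The mitoferrins kept a near equal ratio per length, with Slc25a28 at 52.1% ± 3.87 of the pair in sham controls, 49.9% ± 6.23 in sham knockouts, 52.5% ± 3.43 in injured controls and 50.9% ± 4.07 in injured knockouts (SD, n = 3). The glutathione carriers Slc25a39 and Slc25a40 were not called at -0.17 ± 0.11 and -0.29 ± 0.14, and Slc25a39 made up at least 98.1% of that pair in every library.

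Mitoferrin 1 is abundant in red cell precursors. The summed level of 8 erythroid markers was 98.5 to 246 CPM in injured controls and 43.8 to 51.2 CPM in injured knockouts. Of 7 tested, 6 were called lower, beside 24.4% of all genes. The 7 neutrophil markers summed to 8.78 to 39.6 CPM in injured controls and 43.6 to 66.7 CPM in injured knockouts, with Ly6g, Mpo and Elane at no more than 3 counts in every library. Of 4 tested, S100a8 and S100a9 were called higher (beside 22.5% of all genes), and Cxcr2 and Csf3r were not called. S100a8 and S100a9 made up most of the sum in every injured library, whereas Csf3r was at 5.17, 11.5 and 2.91 CPM in injured controls and 4.35, 6.58 and 5.15 CPM in injured knockouts. The part of either cell type in the level of Slc25a37 was not tested. Slc25a37 also overlaps 4 other annotated genes, 1 of them (Gm20236) on the same strand.

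Among relatives of the uncoupling proteins, Slc25a30 (also known as the kidney mitochondrial carrier) rose, and Slc25a14 and Slc25a27 were not called. Slc25a30 was at 105, 102 and 96.3 CPM in sham controls and at 129, 106 and 113 CPM in sham knockouts. It was at 145, 125 and 157 CPM in injured controls and at 257, 248 and 286 CPM in injured knockouts, with no overlap between the injured groups (log2 fold change 0.89 ± 0.13, edgeR adjusted p = 0.00135). The uncoupling proteins belong to the same family under other symbols. Ucp2 was called higher in injured knockouts at a log2 fold change of 1.30 ± 0.18 and Ucp3 at 2.80 ± 0.47, so that 2 of 4 tested members under other symbols were higher and none was lower.

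Carriers of uncertain solute were mixed. Slc25a34 (chr4:141618824-141623821, minus strand) was at 38.7, 29.3 and 34.6 CPM in sham controls, at 39.3, 50.2 and 41.4 CPM in sham knockouts, at 26.1, 20.03 and 26.9 CPM in injured controls and at 82.1, 55.5 and 52.6 CPM in injured knockouts. Injured controls were lowest and injured knockouts highest, a 2.58-fold difference (log2 fold change 1.37 ± 0.20, edgeR adjusted p = 0.00142). Slc25a46, an outer membrane protein of mitochondrial shape, was at 60.3, 62.7 and 69.6 CPM in injured controls and at 98.4, 74.2 and 92.8 CPM in injured knockouts (0.45 ± 0.13, adjusted p = 0.0205). That call was lost with total counts (0.25, edgeR adjusted p = 0.136) and without injured control library 1 (0.40, 0.0792), injured knockout library 2 (0.39, 0.0611) or injured knockout library 4 (0.42, 0.0737). Slc25a35 fell from 10.7, 5.95 and 13.5 CPM to 5.64, 5.47 and 4.90 CPM (-0.92 ± 0.29, edgeR adjusted p = 0.0343). Its call was lost without injured control library 1 (-0.88, adjusted p = 0.0878), injured control library 4 (-0.65, 0.0906), injured knockout library 2 (-0.94, 0.0723), injured knockout library 3 (-0.93, 0.0904) or injured knockout library 4 (-0.85, 0.111), and it overlaps Rangrf on the opposite strand. Slc25a45, Slc25a47, Slc25a48, Slc25a53 and Slc25a43 were not called.

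**Figure D4:**
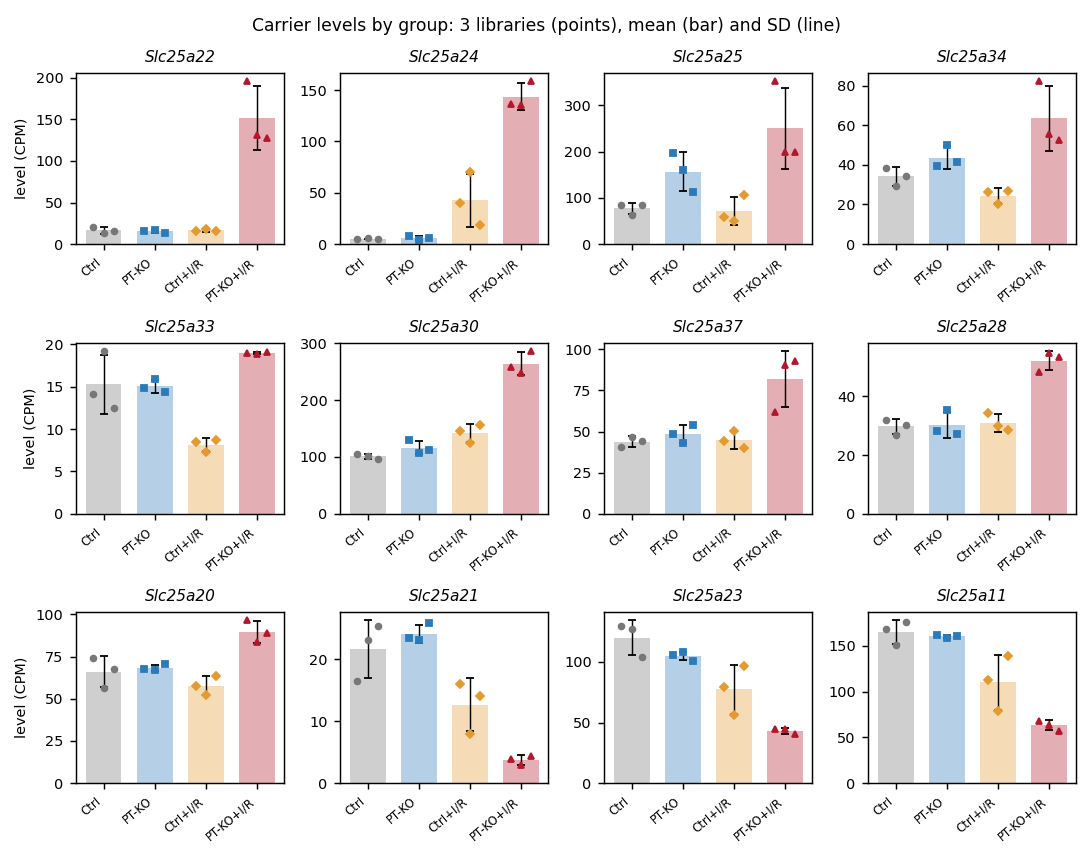
Level (CPM) of 12 carriers in each library (points), with group mean (bars) and SD (lines), 3 libraries per group. In injured knockouts, Slc25a22 lies between 127 and 196 CPM against at most 20.6 CPM elsewhere, while Slc25a21, Slc25a23 and Slc25a11 are at their lowest.

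Markers of several cell types moved with these differences. The 8 proximal tubule markers summed to 13476 to 14295 CPM in sham controls, 12859 to 14573 CPM in sham knockouts, 3863 to 9155 CPM in injured controls and 2233 to 2820 CPM in injured knockouts. Of the 8, 6 were called lower in injured knockouts than in injured controls, beside 24.4% of all genes. In bulk tissue, fewer proximal tubule cells and less of an mRNA per cell cannot be told apart. The injury markers Havcr1 and Lcn2 summed to 542 to 2561 CPM in injured controls and 3806 to 5207 CPM in injured knockouts, and both were called higher. The 3 fibroblast markers summed to 373 to 531 CPM in injured controls and 89.2 to 146 CPM in injured knockouts, with Col1a1 and Col3a1 called lower and Pdgfrb not called. The 3 endothelium markers summed to 184 to 198 CPM and 250.8 to 254 CPM, with Kdr and Cdh5 called higher and Pecam1 not called.

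The 6 leukocyte markers summed to 43.4 to 74.9 CPM in injured controls and 29.5 to 40.3 CPM in injured knockouts, but their members went in opposite directions. Ptprc, the pan-leukocyte antigen CD45, fell from 39.6, 32.5 and 18.96 CPM to 5.81, 6.05 and 6.51 CPM, and the macrophage marker Adgre1 fell from 9.99, 5.84 and 8.09 CPM to 0.512, 0.445 and 0.193 CPM. Cd68, of the lysosomes of macrophages, rose from 17.9, 14.2 and 14.2 CPM to 20.1, 28.6 and 29.96 CPM. Of 4 leukocyte markers tested, 1 was thus called higher and 2 lower by edgeR, beside 22.5% and 24.4% of all genes. The sums overlapped between the injured groups for the thick ascending limb and distal tubule (1658 to 4127 CPM and 2217 to 2672 CPM), with 2 of 4 markers called lower. They also overlapped for collecting duct (99.3 to 211 CPM and 135 to 157 CPM, with 0 of 3 markers called by edgeR) and podocytes (283 to 328 CPM and 302 to 349 CPM). Of the 3 podocyte markers, 1 was called, Nphs1, which was lower, at 25.5, 19.4 and 21.1 CPM in injured controls and 10.8, 10.01 and 8.38 CPM in injured knockouts. The part of these cells in the carrier differences was not tested.

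The effect of injury was next taken within each genotype, from libraries that the 2 comparisons do not share. In control mice, 2 of 42 carriers rose and 5 fell in injured controls compared with sham controls, that is 16.7% against 19.4% of all 15567 genes (11.4% higher and 7.97% lower). The median log2 fold change of the carriers was -0.29, a change of over 2-fold was called for 3 (beside 9.08% of all genes), and 24 did not overlap between the groups (beside 43.6%). Slc25a24 rose 8.30-fold (log2 fold change 3.05 ± 0.45, edgeR adjusted p = 0.00959) and Slc25a30 by 0.50 ± 0.12 (adjusted p = 0.0308). Those that fell were Slc25a29 (-1.46 ± 0.24), Slc25a35 (-1.16 ± 0.27), Slc25a33 (-0.90 ± 0.19), Slc25a36 (-0.80 ± 0.14) and Slc25a13 (-0.59 ± 0.17), with edgeR adjusted p from 0.0124 to 0.0474. This count rested on single libraries. Omitting sham control library 1 left 0 calls, omitting sham control library 2 left 1, omitting sham control library 3, the male one, left 4, omitting injured control library 1 left 2, and omitting injured control library 4 gave 17. Leaving out both Xist-carrying sham control libraries, 5 of the 7 were called where all male libraries of the 4 groups shared 1 fit (with 1 library for sham controls), and Slc25a35 and Slc25a30 were not.

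In knockout mice, 10 of 41 carriers rose and 22 fell in injured knockouts compared with sham knockouts. That is 78.05% of the carriers against 65.5% of all 15155 genes, and 32.9% of all genes were higher and 32.7% lower. The median log2 fold change was -0.54 over the carriers and 0.01 over all genes. A change of over 2-fold was called for 11 carriers, 3 higher and 8 lower, beside 30.6% of all genes, and 33 did not overlap, beside 70.8%. Slc25a24 rose 23.7-fold (log2 fold change 4.57 ± 0.17), Slc25a22 9.84-fold (3.30 ± 0.18) and Slc25a30 2.26-fold (1.18 ± 0.10). Large falls were those of Slc25a21 (-2.70 ± 0.17), Slc25a35 (-1.78 ± 0.16), and Slc25a42, a coenzyme A carrier (-1.63 ± 0.19). Other falls of over 2-fold were those of Slc25a11 (-1.35 ± 0.09), Slc25a23 (-1.28 ± 0.08), Slc25a36 (-1.17 ± 0.09) and Slc25a13 (-1.12 ± 0.09). All 9 tested carriers of cofactors, nucleotides and the methyl donor were called, 8 lower and Slc25a33 higher. The abundant ADP/ATP carriers fell as well, Slc25a5 by 0.55 ± 0.10 and Slc25a4 by 0.74 ± 0.11 on the log2 scale, while the phosphate carrier Slc25a3 was not called (-0.18 ± 0.09).

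A few of these calls turned on 1 library. Slc25a25 was called at 0.67 ± 0.24, and not without sham knockout library 2 (0.68, edgeR adjusted p = 0.0698), sham knockout library 4 (0.48, 0.123) or injured knockout library 2 (0.36, 0.113). Slc25a33 was called at 0.33 ± 0.11, and not without sham knockout library 1 (0.31, adjusted p = 0.0671), sham knockout library 4 (0.29, 0.0821) or injured knockout library 4 (0.32, 0.0510). Slc25a34 was called at 0.53 ± 0.16, and not without sham knockout library 1 (0.45, 0.0683) or sham knockout library 4 (0.49, 0.0599), while without injured knockout library 2 it was still called at 0.31. Slc25a51 was called at -0.27 ± 0.09, and not without sham knockout library 2 (-0.23, 0.0608) or injured knockout library 4 (-0.24, 0.0747).

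Of 41 carriers tested in both genotypes, the fitted effect of injury was negative in both for 27 (65.9%, beside 37.1% of 14802 genes), positive in both for 6 (14.6%, beside 35.9%) and of differing sign for 8 (19.5%, beside 27.0%). These are signs of fitted values, most of them not called in controls. In both genotypes 6 were called (14.6%, beside 16.0% of the genes), 5 of them in the same direction. Slc25a33 was the exception, falling in controls and rising in knockouts. Whether the effect of injury differed between genotypes was tested by the interaction in edgeR over all 12 libraries. It was called for 15 of 42 carriers (35.7%), beside 30.6% of all 16168 genes, with 9 effects higher in knockouts (beside 14.3% of all genes) and 6 lower (beside 16.4%). A difference of over 2-fold was called for 7, beside 15.7% of all genes. With total counts, 7 were higher and 8 lower (beside 9.84% and 18.5% of all genes), and the median of all genes moved from -0.02 to -0.10. The largest differences were those of Slc25a22 (3.30 ± 0.27, adjusted p = 2.92e-05), Slc25a21 (-1.92 ± 0.35, 0.00202), Slc25a24 (1.52 ± 0.52, 0.0444), Slc25a29 (1.28 ± 0.31, 0.00978) and Slc25a33 (1.24 ± 0.21, 0.00134). With the male libraries only, 7 of the 15 were called (beside 14.4% of all genes), and here too 1 library stood for sham controls, with its spread taken from the other groups.

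**Figure D5:**
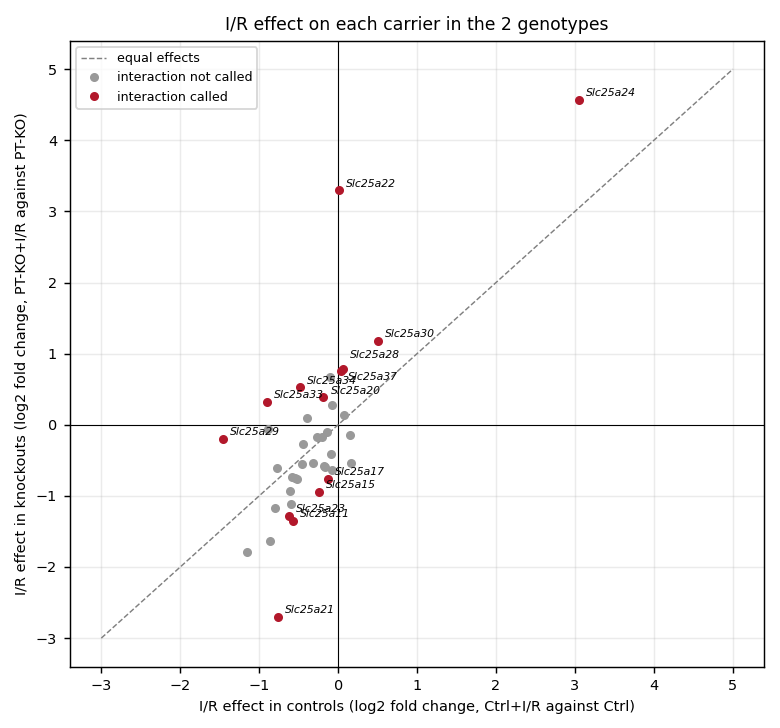
Effect of I/R on 40 of the 41 carriers tested in both genotypes, in controls (x axis) and in knockouts (y axis), as log2 fold changes from separate libraries, with the dashed line marking equal effects. The 14 red points, of 15 called, differed between genotypes by the edgeR interaction, with Slc25a22 at 0.01 in controls and 3.30 in knockouts.

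Without injury, no carrier was called between sham knockouts and sham controls by edgeR among 41 tested, and none of 15291 genes (0%). At an unadjusted p under 0.05 there were 7 carriers and 2573 genes, and DESeq2 called 2 carriers, Slc25a25 and Slc25a48, among 458 genes (3.25%). Among the 7 were Slc25a25 (log2 fold change 1.02 ± 0.20), Slc25a48 (0.52 ± 0.12), Slc25a10 (0.36 ± 0.14), Slc25a34 (0.35 ± 0.13), Slc25a42 (0.32 ± 0.10) and Slc25a4 (-0.29 ± 0.09). The edgeR adjusted p of all 7 ran from 0.183 to 0.262. Libraries did not overlap for 10 carriers, beside 21.0% of all genes, and the 3 sham knockout libraries of Slc25a25 all lay above the 3 sham control libraries. Without sham control library 3, 8 carriers were called (beside 12.4% of all genes), but this sets 2 female controls against 3 male knockouts, so that genotype and sex cannot be told apart. With male libraries only, no carrier was called by edgeR, in a fit where sham control library 3 alone stood for its group and the other groups gave the spread.

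Over the 4 groups, the lowest mean was in injured knockouts for 24 of 42 carriers (57.1%, beside 40.3% of 16168 genes) and in injured controls for 11 (26.2%, beside 17.1%). The highest mean was in sham controls for 14 (33.3%, beside 23.2%), in sham knockouts for 14 (33.3%, beside 20.5%), in injured knockouts for 12 (28.6%, beside 38.4%) and in injured controls for 2 (4.76%, beside 17.9%). These orders of means were not tested.

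Other genes of the pathway were set beside the carriers from lists of general knowledge. Of 16 genes of carrier import and the disulfide relay, 4 were higher and 2 lower in injured knockouts than in injured controls. That is 37.5%, beside 46.9% of all genes, with a median log2 fold change near 0 (-0.00021). Agk, a TIM22 subunit, fell by 0.70 ± 0.15 on the log2 scale, and Tomm20 rose by 0.54 ± 0.13, Timm10 by 0.47 ± 0.11 and Aifm1, a partner of Chchd4, changed by -0.51 ± 0.12. Gfer was not called (0.32 ± 0.13). Of 16 other inner membrane transporters, 1 was higher and 8 lower (56.25%, beside 46.9% of all genes). Among those lower were the sideroflexins Sfxn4 (-1.89 ± 0.37), Sfxn2 (-1.51 ± 0.25) and Sfxn5 (-1.06 ± 0.17), while Slc8b1, the mitochondrial sodium/calcium exchanger, was higher (0.89 ± 0.17).

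Regulators of mitochondrial genes were mixed, with 4 of 11 higher and 3 lower (63.6%, beside 46.9% of all genes). Esrra fell by 1.31 ± 0.24 on the log2 scale, Esrrb rose by 1.22 ± 0.26, Ppara rose by 1.17 ± 0.25, and Ppargc1a, the coactivator PGC-1α, changed by -0.84 ± 0.23. Among 80 nuclear subunits of the respiratory chain, 0 were higher and 6 lower by edgeR, a share of 7.50% beside 45.2% of the carriers and 46.9% of all genes. Their median log2 fold change was -0.12. In the injured against the sham knockouts, 70 of these 80 were lower and 1 higher, beside 32.7% and 32.9% of all genes in that comparison. Of 77 mitochondrial ribosomal proteins, 6 were higher and 14 lower in injured knockouts than in injured controls (26.0%). These lists were compared by their counts only.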

How the data were processed

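The deposited table held whole-number read counts per gene, which the authors did not normalize or filter. Per the labels, HISAT2 2.0.4 and mm10 were used. The counting program, annotation and strand setting are not given in the sources used here. Symbols and exon lengths came from GENCODE M21 (55141 of 55487 identifiers matched). The carriers, gene lists and tests were chosen with earlier results of these data known.

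Genes were filtered with filterByExpr, scaled by TMM and tested by quasi-likelihood in edgeR 4.0.16 (limma 3.58.1, R 4.3.3), each comparison using its own 6 libraries and the interaction all 12. Calls required an adjusted p (Benjamini-Hochberg, over all genes tested) below 0.05. Errors are SE of log2 fold changes unless marked SD. Levels are CPM, or CPM per kb of merged exons. Values are given for carriers called with an absolute log2 fold change over 1, those called in the interaction, the 10 highest per length and 16 with well-known solutes. The values of 1 carrier, which stays in the counts, are not reported here. Naming of the other called carriers was decided after their values were seen.

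Alternatives were total counts, 2 other count filters, DESeq2 1.42.0, a replicate block, 1 fit to 12 libraries, male libraries only and leaving out each library. Same-numbered libraries did not deviate together (12 pairs, median correlation -0.022, 1 over 0.1), and the numbers were not taken as pairs. With 3 libraries per group, these correlations cannot decide whether the numbers mark pairs. The test scripts were tested on simulated data. Figures were drawn with matplotlib 3.10.9.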

Additional observations from a re-analysis of the deposited data

Results flagged for a closer look

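For 15 carriers, the effect of I/R in knockout kidneys differed from that in control kidneys by the edgeR interaction over 12 libraries (Benjamini-Hochberg adjusted p under 0.05). The difference on the log2 scale, knockouts less controls, was positive for 9 of them. It was 3.30 for the glutamate carrier Slc25a22, 1.52 for the ATP-Mg/phosphate carrier Slc25a24, 1.28 for the basic amino acid carrier Slc25a29 and 1.24 for the pyrimidine nucleotide carrier Slc25a33. Slc25a34 had a difference of 1.03, the mitoferrins Slc25a28 and Slc25a37 had 0.74 and 0.73, Slc25a30 had 0.69 and the acylcarnitine carrier Slc25a20 had 0.59. The difference was negative for 6, among them -1.92 for the oxodicarboxylate carrier Slc25a21, -0.76 for the oxoglutarate carrier Slc25a11, -0.68 for the ornithine carrier Slc25a15, -0.64 for Slc25a23 and -0.62 for the peroxisomal carrier Slc25a17.

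Of these, 10 were called without each of the 12 libraries in turn. Slc25a23 lost its call without any library but injured control library 2 (lowest -0.45, adjusted p = 0.107, without injured control library 4). Slc25a24 lost its call without any library but injured control libraries 2 and 4 (1.325, 0.102, without sham knockout library 2). Slc25a15 lost its call without any library but sham control library 3 and injured knockout library 2 (-0.54, 0.0912, without injured knockout library 3). Slc25a11 lost its call without sham control library 2, sham knockout library 1 or 4, injured control library 1 or 4, or injured knockout library 4 (-0.57, 0.0506, without injured control library 4). Slc25a37 lost its call without sham control library 2, sham knockout library 2, injured control library 4, or injured knockout library 3 or 4 (0.63, 0.0598, without the last). The adjusted p-values are those of edgeR.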

How the results depend on the processing

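Between injured knockouts and injured controls, the 19 called carriers became 5 with a replicate block, and 14 to 21 when 1 library was left out. For injured controls against sham controls, the 7 became 17 with DESeq2, 15 with the replicate block, 19 in 1 fit to all 12 libraries, 0 to 17 when 1 library was left out, and 0 in a 6-library fit without both Xist-carrying sham control libraries, which was chosen after seeing the data and called no gene at all. For sham knockouts against sham controls, the 0 became 2 without a low-count filter, 2 with DESeq2, 3 with the replicate block and 0 to 8 when 1 library was left out. The 15 of the interaction became 5 with the replicate block, 7 with male libraries only (1 sham control library) and 10 to 19 when 1 library was left out. The 32 between injured knockouts and sham knockouts became 26 to 30 when 1 library was left out. Calls over all genes also moved with the setting, as between edgeR and DESeq2 for the sham libraries. These counts of called carriers are therefore no result about the carriers alone. The block uses the library numbers, and whether these mark pairs is not known. Sham control library 3 had a block of its own. Over 66 fold changes of named carriers and 940 alternative values, none changed direction, 797 stayed on their side of the threshold and 143 lost the call, 89 of these when 1 library was left out and 25 with the block. Apart from the counts named, the cause of each change was not tested. With 3 libraries per group, their number limits the precision, and carriers below about 18 counts could not be compared at this depth.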
